A study of Homo sapiens with 9 samples.

Results

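The genes examined were 10 members of the activin and bone morphogenetic protein (BMP) system, chosen by symbol: the ligand subunit gene INHBA, the ligand genes BMP2, BMP4 and GDF15, the antagonist genes FST, FSTL3, NOG and GREM1, the pseudoreceptor gene BAMBI and the protease gene BMP1. All 10 were among the 20777 genes listed in the count table, and 6 of them had enough reads to be tested. To examine how uridine acts on activated hepatic stellate cells (HSCs), the study sequenced RNA of LX-2 cells, an immortalized human HSC line recorded as wild type. The study compared 3 conditions with 3 libraries each: untreated LX-2 cells (control), cells given transforming growth factor-β (TGF-β), and cells given TGF-β and uridine. The labels mark both treated groups as day 1, and by the study's methods TGF-β came first and the medium was then exchanged for one with uridine. All libraries came from a single cell line, there was no group with uridine alone, and the sources used here do not say whether libraries of a group were separate cultures, so p-values measured only the spread between these libraries.

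Activins and BMPs are secreted dimers of the TGF-β superfamily that bind type I and type II serine/threonine kinase receptors, after which activins signal through SMAD2 and SMAD3 and BMPs through SMAD1, SMAD5 and SMAD9. Antagonists hold the ligands outside the cell: follistatin (FST) and follistatin-like 3 (FSTL3) bind activins, whereas noggin (NOG) and gremlin 1 (GREM1) bind BMPs. In the liver, activin A is known as a profibrotic signal to HSCs, and BAMBI, a decoy receptor that dampens TGF-β signaling, is known to be reduced when HSCs become activated.

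The libraries held 40539751 to 41467124 reads on genes. The label was checked against marker genes: VIM (438 to 852 FPKM), THY1 (42.3 to 62.1 FPKM) and DES (6.40 to 9.29 FPKM) were present. However, COL1A2 had 0 to 1 read, LUM 0 to 17 reads, DCN 14 to 84 reads and COL3A1 17 to 102 reads per library. FPKM scales reads by gene length and by the library total. The summed level of 13 stellate and fibroblast markers was 732 to 840 FPKM in control, 1241 to 1260 FPKM with TGF-β and 1146 to 1165 FPKM with TGF-β and uridine. Most of this sum was VIM, with means of 501, 841 and 751 FPKM in that order. Of the lists for other cell types, 4 of 7 hepatocyte markers were listed and summed to at most 0.0985 FPKM, 3 of 6 endothelial markers summed to at most 0.417 FPKM, and 5 of 6 macrophage markers summed to 17.0 to 22.8 FPKM, nearly all of it CD68 (16.8 to 22.7 FPKM). The 4 cholangiocyte markers summed to 596 to 803 FPKM in control, 1131 to 1179 FPKM with TGF-β and 833 to 974 FPKM with TGF-β and uridine, carried by the keratin gene KRT7, with EPCAM at 0 to 5 reads. The part of these marker levels in the results was not tested. In bulk RNA, fewer cells of a type and less RNA per cell cannot be told apart. PMEPA1 and TGFBI, known TGF-β targets, were higher with TGF-β than in control by 2.59 and 2.84 on the log2 scale, whereas SKIL did not pass (0.51, adjusted p = 0.939, edgeR).

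The control libraries spread widely, with control replicates 1 and 3 at opposite ends. The slope of expression on transcript GC content was 5.65 in control replicate 1 (log2 per unit of GC fraction, relative to the mean library). It was -0.733 in control replicate 2, -4.10 in control replicate 3 and -2.69 to 2.28 in the 6 treated libraries. The TMM scaling factor was lowest of the 9 in control replicate 1 (0.820) and highest in control replicate 3 (1.16). With the GC slope as a covariate, 20.3% of all tested genes passed for TGF-β against control, 31.1% for TGF-β with uridine against control and 19.1% between the treated groups. Calls of members and named pathway genes that changed without control replicate 1 or with the covariate are given beside each gene.

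The promoter sequences of 4 members are shown. FSTL3 and FST are related activin antagonists at opposite ends of the range of levels. GREM1 is an antagonist with higher values and GDF15 a ligand with lower values in the treated groups, though neither passed the main edgeR test. Promoter windows of BMP1, BMP2 and NOG were not analysed, so the called members BMP1 and NOG are missing here. Each sequence is from RefSeq (GRCh38.p14), 250 bases before to 50 bases after the annotated start on the plus strand, at chr19:676142-676441 for FSTL3, chr5:53480379-53480678 for FST, chr15:32717754-32718053 for GREM1 (the first of its 2 windows) and chr19:18385908-18386207 for GDF15. Capitals mark matches on either strand. The letters searched were CAGACA, which SMAD proteins bind, and the GC-rich motif GGCGCC bound by BMP SMADs. Also searched were the AP-1 site TGANTCA, the core TGACGT of the cAMP response element, and the TATA box TATAAA.
FSTL3: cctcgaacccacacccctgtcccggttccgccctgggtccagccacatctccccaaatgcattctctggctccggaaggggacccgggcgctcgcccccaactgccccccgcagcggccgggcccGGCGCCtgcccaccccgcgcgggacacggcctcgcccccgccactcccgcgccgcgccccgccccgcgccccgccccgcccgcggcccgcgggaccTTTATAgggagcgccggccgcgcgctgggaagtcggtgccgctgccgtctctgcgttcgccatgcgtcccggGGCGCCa
FST: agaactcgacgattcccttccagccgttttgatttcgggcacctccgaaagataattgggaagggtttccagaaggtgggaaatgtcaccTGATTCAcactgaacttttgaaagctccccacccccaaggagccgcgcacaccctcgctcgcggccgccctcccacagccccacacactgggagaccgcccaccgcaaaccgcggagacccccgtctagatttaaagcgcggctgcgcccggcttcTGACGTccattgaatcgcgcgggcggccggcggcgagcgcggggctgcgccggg
GREM1: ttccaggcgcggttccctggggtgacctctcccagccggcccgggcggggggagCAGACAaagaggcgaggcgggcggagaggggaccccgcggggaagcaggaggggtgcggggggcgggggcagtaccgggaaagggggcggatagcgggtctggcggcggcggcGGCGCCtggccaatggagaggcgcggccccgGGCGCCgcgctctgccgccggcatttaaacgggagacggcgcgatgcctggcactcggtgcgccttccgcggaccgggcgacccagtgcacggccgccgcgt
GDF15: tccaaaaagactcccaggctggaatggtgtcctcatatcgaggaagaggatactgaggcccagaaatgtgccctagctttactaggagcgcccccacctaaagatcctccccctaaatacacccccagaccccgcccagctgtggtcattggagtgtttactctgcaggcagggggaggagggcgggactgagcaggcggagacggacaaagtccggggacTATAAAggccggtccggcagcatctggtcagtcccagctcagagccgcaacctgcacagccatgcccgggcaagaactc

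FSTL3 held GGCGCC at 125 bases upstream of the start and again after it, and the letters of the TATA box on the minus strand at 29 bases upstream. GDF15 held the TATA box letters on the plus strand, also at 29 bases upstream. FST held an AP-1 match at 160 bases and a TGACGT match at 4 bases upstream, and GREM1 held CAGACA at 196 bases and GGCGCC at 83 and 52 bases upstream. The second GREM1 window, not printed, held no match. No printed match overlapped another. Among all 35116 RefSeq promoter windows of the same length, 16.88% held CAGACA, 19.22% GGCGCC, 7.709% TGANTCA, 7.982% TGACGT and 11.53% TATAAA, and a match is a description of the letters only.

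Levels of the 10 genes, compared per gene length, spanned from 102 FPKM for FSTL3 to 0.00215 FPKM for FST as means over the 9 libraries. The order was FSTL3, BMP1 (27.5 FPKM), GDF15 (3.29 FPKM), BAMBI (2.86 FPKM), NOG (0.461 FPKM), GREM1 (0.217 FPKM), BMP2 (0.0581 FPKM), BMP4 (0.0378 FPKM), INHBA (0.0137 FPKM) and FST. FSTL3 and BMP1 were separated in every group, and BMP1 from the gene below it. GDF15 was above BAMBI in all control libraries, at 3.85 FPKM or more against 3.73 FPKM or less, but the ranges of this pair overlapped in both treated groups. NOG and GREM1 overlapped in control and were separated in both treated groups. GREM1 and BMP2 also overlapped in control. At the low end, BMP4 and FST overlapped in control, BMP4 overlapped BMP2 in both treated groups, and INHBA overlapped FST in both treated groups. FSTL3 made up 57.0% to 64.0% of the members' summed FPKM in control, 76.9% to 77.4% with TGF-β and 77.6% to 80.3% with TGF-β and uridine.

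**Figure D1:**
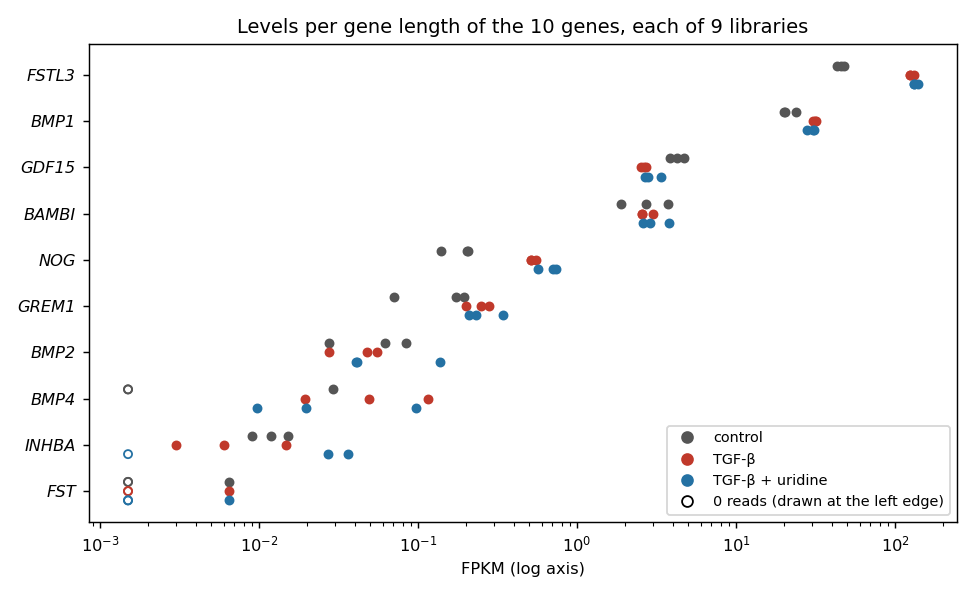
Level per gene length of each gene (FPKM, log axis) in each of the 9 libraries; every point is 1 library, colored by group, and open circles at the left edge stand for 0 reads. FSTL3 and BMP1 lie well above the other genes, and the ligand genes INHBA, BMP2 and BMP4 and the antagonist FST lie at the low end.

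TGF-β against control asks which of these genes differed in the activated cells. Of the 6 tested members, FSTL3, BMP1 and NOG rose and none fell at an adjusted p under 0.05 (edgeR quasi-likelihood test, Benjamini-Hochberg adjustment over 13384 genes), where 3.38% of all tested genes were called, 2.42% higher and 0.964% lower. The median log2 fold change of the 6 was 0.67, beside -0.05 over all tested genes. Normalized values of 5 of the 6 did not overlap between the groups, FSTL3, BMP1, NOG and GREM1 higher and GDF15 lower, where 17.7% of all tested genes did not overlap (9.72% higher and 7.96% lower). TGF-β with uridine against control gave the same 3 members higher and none lower, where 5.33% of tested genes were called, 2.89% higher and 2.44% lower. The same 5 members did not overlap with control in the same directions, where 19.7% of tested genes did not (10.5% higher and 9.20% lower). This comparison shares its control libraries with the first.

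TGF-β with uridine against TGF-β alone asks what uridine added. None of the 6 members passed the test (edgeR), none had an unadjusted p under 0.05, and DESeq2 called none, where 0.0448% of all tested genes (6 genes, all lower) passed and 8.79% had an unadjusted p under 0.05. Their median log2 fold change was 0.10, beside 0.02 over all tested genes. In CPM, BMP1 alone did not overlap between these groups (lower with uridine), where 25.6% of tested genes did not (12.8% lower). In FPKM it did overlap, whereas FSTL3 and NOG did not (higher with uridine), where 29.2% of tested genes did not (17.9% higher), so which members separated depended on the scaling.

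**Figure D2:**
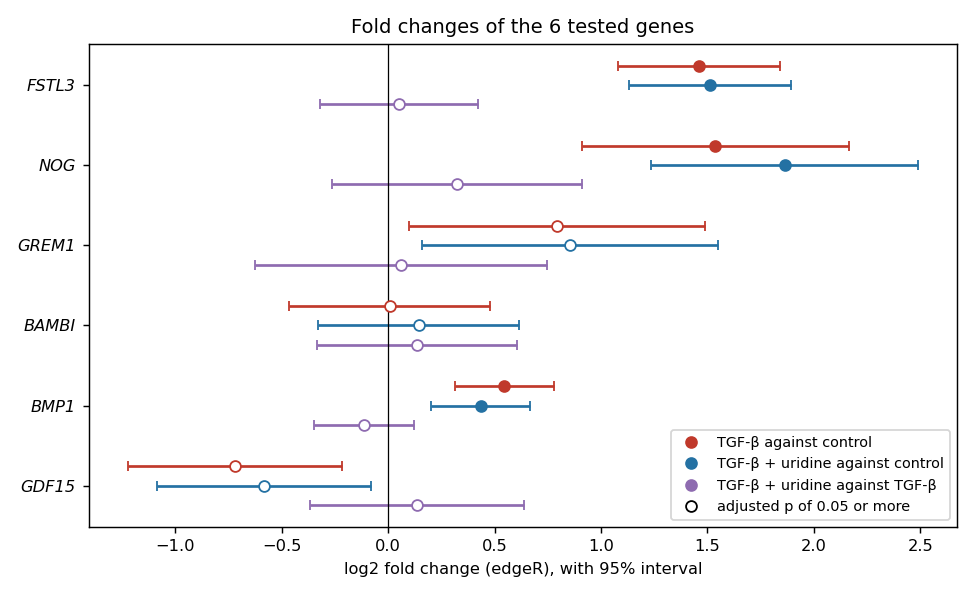
Log2 fold change of each tested gene in the 3 comparisons (edgeR); points are estimates, bars 95% intervals, and filled points an adjusted p under 0.05. FSTL3, NOG and BMP1 are filled and right of 0 in both comparisons with control, and every interval of TGF-β with uridine against TGF-β crosses 0.

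The ligand gene INHBA, which encodes the βA subunit of activin A (chr7:41667168-41705834, minus strand, GRCh38, GENCODE v29), was near the limit of detection. Its counts were 3, 5 and 4 reads in the control libraries, 2, 5 and 1 with TGF-β, and 0, 9 and 12 with TGF-β and uridine. The groups overlapped in all 3 comparisons (exact permutation test, two-sided, p = 0.4 in each). Summed over each group and scaled by its summed depth alone to counts per 1e6 reads (CPM), this was 0.0976 CPM in control (exact Poisson 95% interval 0.0504 to 0.171), 0.0649 CPM with TGF-β (0.0280 to 0.128) and 0.170 CPM with TGF-β and uridine (0.105 to 0.260), intervals that cover counting error only. The antisense gene INHBA-AS1 overlaps INHBA and was not analysed here.

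BMP2 and BMP4, BMP ligands that act through SMAD1 and SMAD5, were as low. BMP2 had 4, 12 and 9 reads in control, 4, 7 and 8 with TGF-β, and 6, 6 and 20 with TGF-β and uridine, and all groups overlapped (exact permutation test, p = 0.5 for TGF-β against control). BMP4 had 0, 0 and 3 reads in control, 2, 12 and 5 with TGF-β, and 10, 1 and 2 with TGF-β and uridine. The summed reads of BMP4 were 3 in control, 19 with TGF-β and 13 with TGF-β and uridine, but single libraries overlapped between groups (exact permutation test, p = 0.2 for TGF-β against control). A library at 0 reads allows up to 3 reads, 0.0629 to 0.0889 normalized CPM (CPM with TMM factors, the scale used for single libraries and group means), again for counting error only. For INHBA and BMP2 the group intervals overlapped, which is not a test of a difference. Their single libraries overlapped between groups too, so a change was neither shown nor excluded. For BMP4 the summed reads gave 0.0244 CPM in control (exact Poisson 95% interval 0.00503 to 0.0713) and 0.154 CPM with TGF-β (0.0928 to 0.241), intervals that did not overlap, and 0.105 CPM with TGF-β and uridine (0.0560 to 0.180). These intervals leave out the spread between libraries, which ran from 2 to 12 reads with TGF-β.

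GDF15, a divergent superfamily member induced by cell stress (chr19:18374731-18389176, plus strand), had the highest level of the 4 ligand genes among the 10. It measured 9.86, 6.38 and 6.31 CPM in the control libraries, 4.83, 4.33 and 4.53 CPM with TGF-β, and 5.63, 4.97 and 4.45 CPM with TGF-β and uridine. All control libraries lay above all treated ones, and control replicate 1 lay furthest up. Means were 7.52 ± 2.03 in control, 4.56 ± 0.250 with TGF-β and 5.01 ± 0.590 with TGF-β and uridine (CPM, SD, n = 3 libraries). The log2 fold change was -0.72 (SE 0.22) for TGF-β and -0.58 (SE 0.22) for TGF-β with uridine against control, and neither passed the test (edgeR adjusted p = 0.159 and 0.203). Without control replicate 1 the first was -0.48 (adjusted p = 0.134, edgeR), and with the GC slope as a covariate it was -0.68 and passed (adjusted p = 0.00356, edgeR), as did TGF-β with uridine against control (-0.52, adjusted p = 0.0124, edgeR). On log2(FPKM + 1) limma gave -0.53 (adjusted p = 0.0143), which also passed, where 8.1% of genes did, and -0.41 for TGF-β with uridine against control (adjusted p = 0.0308), where 14.3% did. Uridine with TGF-β against TGF-β gave 0.14 (95% interval -0.37 to 0.64, log2).

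Among the activin antagonists, FSTL3, a secreted glycoprotein that binds activins and myostatin (chr19:676365-683399, plus strand), had the most reads of the 10 genes. It had 4948, 4637 and 4424 reads in the control libraries, 13471, 12955 and 12703 with TGF-β, and 13617, 14351 and 13514 with TGF-β and uridine. Every treated library lay above every control library, and the treated groups overlapped each other in normalized CPM. Means were 117 ± 27.4, 321 ± 15.9 and 332 ± 37.4 CPM (SD, n = 3 libraries) in that order. FSTL3 rose 2.75-fold with TGF-β (log2 1.46, SE 0.17, adjusted p = 0.00161, edgeR) and was 2.85-fold higher with TGF-β and uridine than in control (log2 1.51, SE 0.17, adjusted p = 0.00131, edgeR). Uridine with TGF-β against TGF-β gave a log2 fold change of 0.05, with a 95% interval of -0.32 to 0.42. The FPKM values were 42.9 to 48.1 in control, 125 to 131.4 with TGF-β and 131.5 to 139 with TGF-β and uridine, and on that scale the treated groups did not overlap.

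FST, its paralog whose product also binds activins (chr5:53480409-53487134, plus strand), had 1 read in 1 library of each group and 0 reads in the other 6, so no fold was computed. Between these paralogs, FSTL3 carried nearly all of the transcript. The summed FPKM of FST and FSTL3 per FPKM of INHBA was 5350, 3008 and 3587 in the control libraries, the first on 3 INHBA reads (exact Poisson 95% interval 1831 to 25941, for the INHBA reads only). With TGF-β it was 8403 in the library with 5 INHBA reads, 21844 in that with 2 (6047 to 180372) and 41199 in that with 1 read (7394 and up). With TGF-β and uridine it was 5171 and 3652 in the libraries with reads. In the library with none it was 14720 with INHBA set to 3 reads, and the exact Poisson 95% interval ran from 11971.5 up. The range with uridine overlapped both others, and the ratios are no more exact than the few INHBA reads. The intervals were 1289 to 9263 and 1401 to 13164.5 in control replicates 2 and 3, and 3601 to 25879 in TGF-β replicate 2. In TGF-β + uridine replicates 2 and 3 they were 2724 to 11309 and 2091 to 7069. The intervals of control and TGF-β libraries thus overlapped, although the ratios as counted did not.

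The BMP antagonist NOG (chr17:56593699-56595590, plus strand), a single-exon gene whose product blocks receptor binding of BMP2 and BMP4, had 11, 16 and 16 reads in the control libraries, 40, 44 and 40 with TGF-β, and 45, 56 and 58 with TGF-β and uridine. Both treated groups lay above control without overlap. Means were 0.347 ± 0.0294, 1.02 ± 0.0460 and 1.27 ± 0.211 CPM (SD, n = 3 libraries). NOG rose 2.90-fold with TGF-β (log2 1.54, SE 0.28, adjusted p = 0.0168, edgeR) and was 3.64-fold higher with TGF-β and uridine than in control (log2 1.86, SE 0.28, adjusted p = 0.00588, edgeR). Between the treated groups it differed by 0.33 (95% interval -0.26 to 0.91, log2), and their libraries overlapped in CPM but not in FPKM, where TGF-β lay at most at 0.555 and TGF-β with uridine at least at 0.568. The call with TGF-β alone was lost with only the 2 groups compared (adjusted p = 0.0598, edgeR) and with the replicate block (0.0530, edgeR). It was lost without control replicate 2 (adjusted p = 0.0729) or 3 (0.0581) and without TGF-β replicate 1, 2 or 3 (0.0722, 0.0859 and 0.0683, edgeR), while the log2 fold change stayed between 1.49 and 1.61.

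GREM1, another secreted BMP antagonist (chr15:32717974-32745107, plus strand), measured 1.27, 2.48 and 2.50 CPM in control, 3.04, 4.16 and 3.65 CPM with TGF-β, and 3.30, 3.32 and 4.70 CPM with TGF-β and uridine. Each treated library lay above each control library, and control replicate 1 was the lowest of all. The log2 fold change was 0.79 (SE 0.31, unadjusted p = 0.0295, adjusted p = 0.300, edgeR) for TGF-β and 0.85 (SE 0.31, adjusted p = 0.177, edgeR) for TGF-β with uridine against control, so neither passed. Without control replicate 1 the log2 fold change with TGF-β was 0.54 (adjusted p = 0.202, edgeR), and with the GC slope as a covariate it was 0.82 and passed (adjusted p = 0.00762, edgeR), as did TGF-β with uridine against control (0.84, adjusted p = 0.00467, edgeR). Uridine with TGF-β against TGF-β gave 0.06 (95% interval -0.63 to 0.75, log2). GREM1 is GC-poor (39.8% of its longest transcript, against a median of 49.3% over tested genes) and GDF15 GC-rich (62.9%). The called members are GC-rich as well: FSTL3 (64.4%), BMP1 (61.0%) and NOG (59.5%). The part of base composition in these values was not tested. The antisense gene GREM1-AS1 had 4 to 18 reads per library, and the strand setting of the counting is not given in the sources used here. Genes that overlap GREM1 (AC090877.2), GDF15 (MIR3189) and BMP1 (AC105206.1 and AC105206.3) were not analysed here.

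NOG and GREM1 together exceeded BMP2 and BMP4 together in FPKM in every library. The ratio was 4.38 to 7.67 in control, 5.10 to 15.1 with TGF-β and 5.80 to 18.1 with TGF-β and uridine. The 3 ranges overlapped, and BMP2 and BMP4 together had few reads.

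BAMBI, which lacks a kinase domain and competes with type I receptors (chr10:28677342-28682939, plus strand), showed no separation of groups. It measured 3.91, 4.45 and 5.45 CPM in the control libraries, 5.26, 4.33 and 4.31 CPM with TGF-β, and 4.67, 4.70 and 5.90 CPM with TGF-β and uridine. All groups overlapped. The log2 fold change was 0.01 for TGF-β against control, with a 95% interval of -0.46 to 0.48 (adjusted p = 0.998, edgeR), and 0.14 for uridine with TGF-β against TGF-β (-0.34 to 0.61).

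BMP1 encodes a metalloprotease and not a BMP ligand: it is procollagen C-proteinase, which trims fibrillar procollagens and also releases ligands by cutting chordin. It had 3284, 3281 and 3899 reads in the control libraries, 5155, 5175 and 4955 with TGF-β, and 5036, 4566 and 4914 with TGF-β and uridine. Both treated groups lay above control without overlap. Means were 85.7 ± 10.2, 125 ± 4.48 and 116 ± 4.32 CPM (SD, n = 3 libraries). BMP1 rose 1.46-fold with TGF-β (log2 0.55, SE 0.10, adjusted p = 0.0218, edgeR) and was 1.35-fold higher with TGF-β and uridine than in control (log2 0.43, SE 0.10, adjusted p = 0.0462, edgeR).

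With uridine, BMP1 measured 117, 119 and 111 CPM, each below the 130, 125 and 121 CPM with TGF-β alone, but in FPKM these groups overlapped. The log2 fold change between these groups was -0.11 (95% interval -0.35 to 0.12, adjusted p = 0.882, edgeR), and an exact permutation test gave p = 0.1, the smallest that 3 libraries against 3 allow. The call of BMP1 with TGF-β was lost without control replicate 2 (adjusted p = 0.123), TGF-β replicate 1, 2 or 3 (0.128, 0.115 and 0.0875) or TGF-β + uridine replicate 1 (0.0582, edgeR). Its call with TGF-β and uridine against control held without control replicate 1 (adjusted p = 0.00246, edgeR) and was lost without each of the other 8 libraries (adjusted p from 0.0861 to 0.198). That call was also lost with RLE factors (adjusted p = 0.0861, edgeR), DESeq2 (0.0595), no filter on low counts (0.0893, edgeR), only the 2 groups compared (0.184, edgeR) and the replicate block (0.0801, edgeR). With only the 2 groups compared, the call with TGF-β was lost too (adjusted p = 0.107, edgeR).

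**Figure D3:**
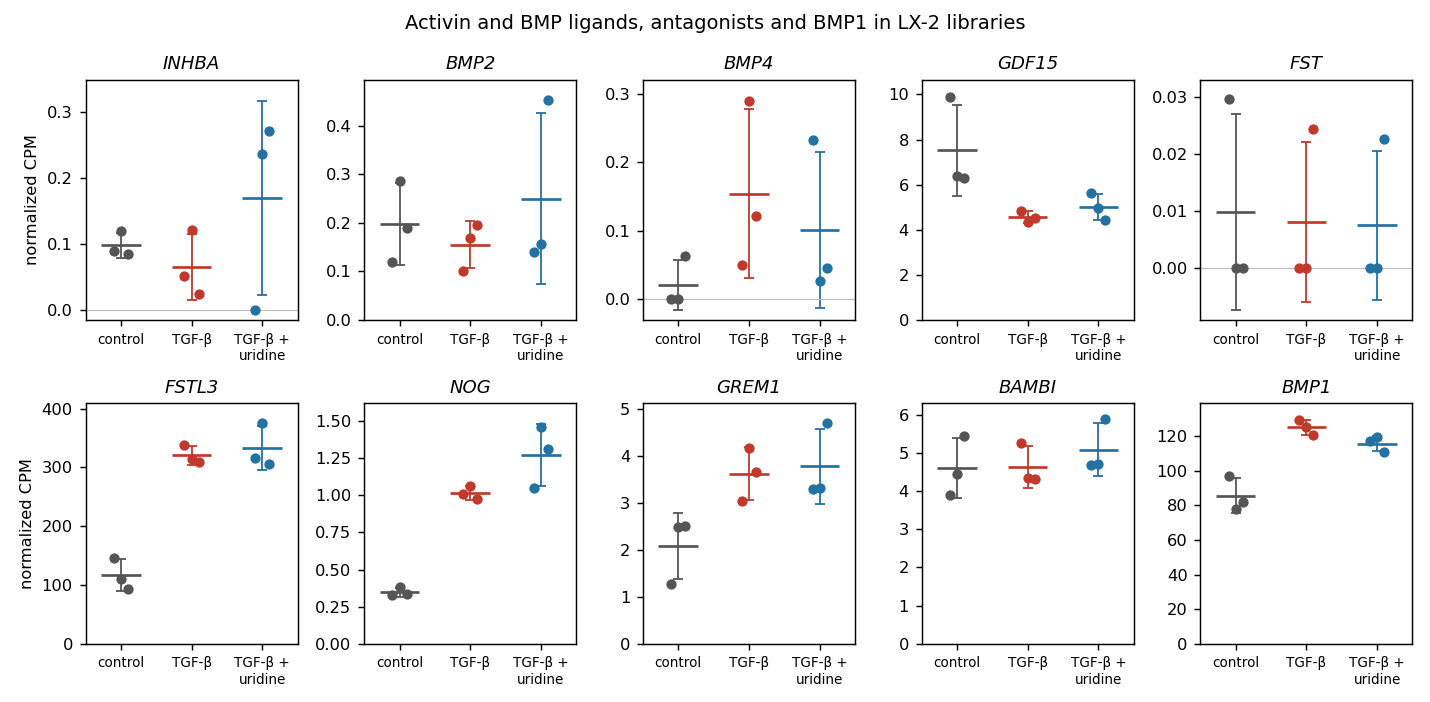
Normalized CPM of each of the 10 genes in its own panel; points are libraries, horizontal lines group means and bars the SD of 3 libraries. Treated libraries lie above control for FSTL3, NOG, GREM1 and BMP1 and below it for GDF15, while INHBA, BMP2, BMP4 and FST stay under 0.5 CPM.

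The rest of the pathway was read from lists of known pathway genes, which held 52 tested genes. With TGF-β 2 of them were called (3.85%, beside 3.38% of all tested genes), and with TGF-β and uridine against control 6 (11.5%, beside 5.33%). Of 26 other ligand genes of these families, 9 were tested. With TGF-β 5 of them had an unadjusted p under 0.05 (edgeR), beside 12.1% of all tested genes. At an adjusted p under 0.05, 1 rose and none fell with TGF-β, with a median log2 fold change of 0.05 over the 9. This was BMP6, a BMP known for control of iron through hepcidin, with 27.7 ± 4.90 CPM in control, 61.3 ± 2.26 CPM with TGF-β and 46.5 ± 3.51 CPM with TGF-β and uridine (SD, n = 3 libraries). BMP6 had the highest level per length of its list (12.0 FPKM), above all 4 ligand genes among the 10. It rose 2.21-fold with TGF-β (log2 1.15, adjusted p = 0.00218, edgeR) and was 1.68-fold higher with TGF-β and uridine than in control (log2 0.75, adjusted p = 0.0157, edgeR). The group with uridine lay below TGF-β alone without overlap, but this difference did not pass (log2 -0.40, 95% interval -0.71 to -0.09, adjusted p = 0.418, edgeR). It passed with only the 2 groups compared (log2 -0.40, adjusted p = 0.0392, edgeR), where 2.44% of genes did, and with the GC covariate (log2 -0.41, adjusted p = 0.00114, edgeR). The BMP6 call against control with uridine was lost without control replicate 2 (adjusted p = 0.0730) or TGF-β + uridine replicate 1 or 3 (0.0817 and 0.0564, edgeR), with only the 2 groups compared (0.126, edgeR) and with limma on FPKM (0.0581 to 0.111). GDF11, a ligand close to myostatin, was also higher with TGF-β and uridine than in control (log2 0.58, adjusted p = 0.0436, edgeR), a call held without control replicate 1 and lost without each other library (adjusted p from 0.0744 to 0.177), and lost with RLE factors (0.0714), no filter on low counts (0.0618) and only the 2 groups compared (0.165, edgeR). The replicate block lost this call as well. Between the treated groups GDF11 passed without control replicate 1 (log2 0.45, adjusted p = 0.0308, edgeR), with only the 2 groups compared (0.47, adjusted p = 0.0245, edgeR) and with the GC covariate (0.48, adjusted p = 7.19e-05, edgeR). GDF11 had a mean level of 5.08 FPKM. The activin subunit gene INHBB, named after its values were seen, had 5 to 28 reads per library. With TGF-β it lay below control without overlap but did not pass (log2 -1.71, adjusted p = 0.0847, edgeR). INHBB was called in that comparison with the GC covariate, where 20.3% of genes were, and with limma on all listed genes, where 3.83% were.

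Receptor genes, 7 of 9 tested, did not pass in any comparison by the main edgeR test or DESeq2. Of the 7, 0, 1 and 2 had an unadjusted p under 0.05 (edgeR) with TGF-β, between the treated groups and with TGF-β and uridine against control. Over all tested genes these shares were 12.1%, 8.79% and 17.6%. Median log2 fold changes were 0.11 for TGF-β and -0.28 for TGF-β with uridine against control. With the GC covariate 2 receptor genes passed in the latter comparison (28.6%, beside 31.1% of all tested genes, edgeR). The activin type I receptor gene ACVR1B had the highest level of this list at 3.82 FPKM. The co-receptor genes, 4 of 6 tested, did not pass the main edgeR test either. In the same order, 1, 1 and 2 of the 4 had an unadjusted p under 0.05 (edgeR), beside the same shares of all tested genes. DESeq2 called RGMB with TGF-β and uridine against control (25.0%, beside 7.5% of all genes). Endoglin (ENG), a co-receptor that binds BMP9, led the co-receptor genes at 25.7 FPKM. With the GC covariate ENG passed with TGF-β (log2 -0.26, adjusted p = 0.00129, edgeR) and between the treated groups (0.15, adjusted p = 0.0460, edgeR). Of 15 other antagonist genes, 6 were tested and none passed in any comparison by the main edgeR test or DESeq2, and 0 had an unadjusted p under 0.05 in any. FSTL1, a secreted relative of follistatin, was the highest of the list at 4.57 FPKM, and its log2 fold change of 0.53 with TGF-β did not pass (adjusted p = 0.610, edgeR). With the GC covariate FSTL1 passed with TGF-β (0.61, adjusted p = 0.000440, edgeR) and with TGF-β and uridine against control (0.50, adjusted p = 0.00126, edgeR).

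The SMAD genes (7 of 8 tested) had no call with TGF-β by the main edgeR test and a median log2 fold change of -0.07. Of them 2, SMAD3 and SMAD7, had an unadjusted p under 0.05 (edgeR), beside 12.1% of all tested genes. DESeq2 called both (28.6%, beside 4.89% of all genes). With TGF-β and uridine against control the inhibitor SMAD7 rose (log2 0.98, adjusted p = 0.0185, edgeR), and SMAD3, the activin and TGF-β effector and the highest of its list in FPKM, fell (log2 -0.50, adjusted p = 0.0384, edgeR). With TGF-β alone the same genes measured 0.76 and -0.45 (adjusted p = 0.0720 and 0.0783, edgeR). Both passed with TGF-β under the GC covariate (SMAD7 adjusted p = 0.000701, SMAD3 0.00121, edgeR), and SMAD3 also without control replicate 1 (log2 -0.41, adjusted p = 0.0415, edgeR). The SMAD7 call was lost without control replicate 2 (adjusted p = 0.0626) or TGF-β + uridine replicate 1 or 3 (0.0914 and 0.0796), with only the 2 groups compared (0.121, edgeR) and with limma on all listed genes (0.0680). The SMAD3 call was lost without each library except control replicate 1 (adjusted p from 0.0567 to 0.158), and lost with no filter on low counts (0.107), only the 2 groups compared (0.156, edgeR) and limma on FPKM (0.0659 to 0.116). The replicate block lost it as well.

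Of 10 genes known to respond to BMPs, 8 were tested, and 1 fell and none rose with TGF-β. This was ATOH8, a BMP-responsive transcription factor gene, at 3.55 ± 1.04 CPM in control, 0.517 ± 0.0733 CPM with TGF-β and 0.921 ± 0.0820 CPM with TGF-β and uridine (SD, n = 3 libraries). ATOH8 was 6.83-fold lower with TGF-β (log2 -2.77, adjusted p = 0.00120, edgeR) and 3.84-fold lower with TGF-β and uridine than in control (log2 -1.94, adjusted p = 0.00574, edgeR). Its difference of 0.83 between the treated groups did not pass (95% interval 0.17 to 1.50, log2, adjusted p = 0.440, edgeR), although their libraries did not overlap, and it passed with the GC covariate (log2 0.86, adjusted p = 0.0419, edgeR). ID3, an inhibitor of DNA binding and a direct BMP target, had the highest level of the list (451 FPKM) and a log2 fold change of 0.34 with TGF-β (adjusted p = 0.613, edgeR). Without control replicate 1 ID3 was 0.60 higher with TGF-β (adjusted p = 0.0135, edgeR) and 0.40 higher with TGF-β and uridine than in control (adjusted p = 0.0437, edgeR). With the GC covariate these were 0.40 and 0.24 and passed (adjusted p = 1.47e-05 and 0.000854, edgeR), as did a difference of -0.16 between the treated groups (adjusted p = 0.0181, edgeR).

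The 2 tested genes of the 4 related to BMP1, the procollagen C-proteinase enhancers PCOLCE and PCOLCE2, did not pass in any comparison by edgeR or DESeq2, and 0 had an unadjusted p under 0.05. PCOLCE, at 73.1 FPKM the highest of them, differed from control by -0.06 with TGF-β (95% interval -0.29 to 0.16, log2). Of 11 stress-response genes that share known inducers with GDF15, 10 were tested, and none passed with TGF-β by the main edgeR test. Of the 10, 1 had an unadjusted p under 0.05 (edgeR), beside 12.1% of all tested genes. DESeq2 called 1, CDKN1A (10.0%, beside 4.89% of all genes). With TGF-β and uridine against control, CDKN1A, the cell cycle inhibitor gene and the highest of the list (54.9 FPKM), rose (log2 0.80, adjusted p = 0.0451, edgeR). The CDKN1A call was lost without each library except control replicate 1 (adjusted p from 0.0751 to 0.184) and with RLE factors (0.0695) or only the 2 groups compared (0.159, edgeR). With TGF-β alone CDKN1A passed without control replicate 1 (log2 1.02, adjusted p = 0.000189, edgeR) and with the GC covariate (0.81, adjusted p = 1.56e-07, edgeR). No gene of these 8 lists passed the main edgeR test in TGF-β with uridine against TGF-β. Of the 52, 9 had an unadjusted p under 0.05 (edgeR), beside 8.79% of all tested genes. DESeq2 called 1 (EGR1, 1.79%, beside 0.818% of all genes). Limma on FPKM called 4, ATF4, EGR1, GDF11 and ID1 (10.3%, 10.3% and 5.80% by setting, beside 3.89%, 3.81% and 1.42%). These genes were named after their values were seen.

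**Figure D4:**
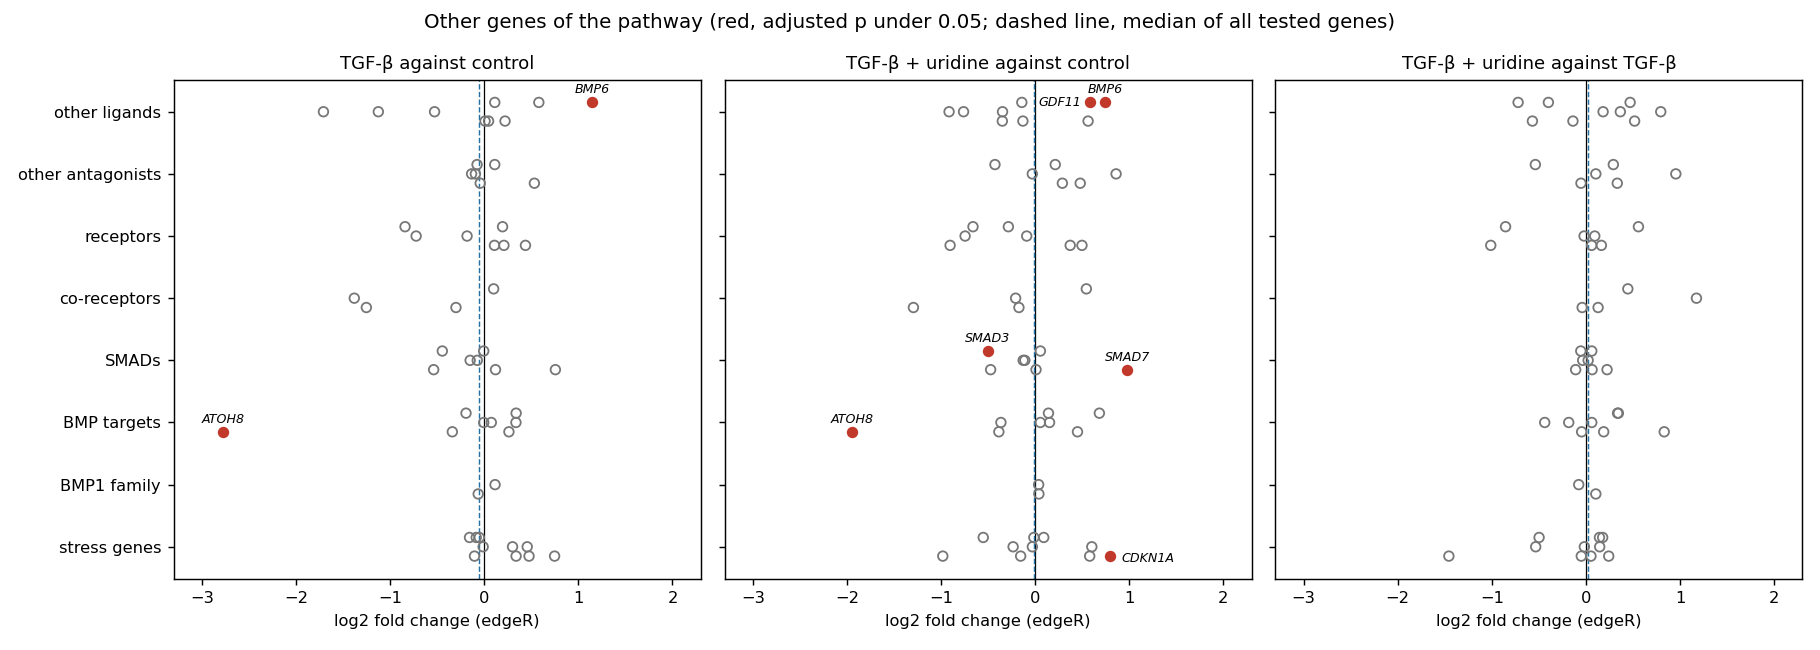
Log2 fold change (edgeR) of the tested genes of 8 pathway lists in the 3 comparisons; red points and labels mark an adjusted p under 0.05 and the dashed line the median of all 13384 tested genes. BMP6 and ATOH8 are red with TGF-β against control, and no point is red for TGF-β with uridine against TGF-β.

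The genes most like each member were sought by Pearson correlation of log2 CPM over the 9 libraries, among 9991 genes (9992 for NOG) with a mean of at least 1 log2 CPM. For FSTL3 they were KRT14 and MSC (r = 0.997 for each), for NOG CYTH1 (0.985) and SEMA7A (0.984), and for BMP1 IER3 and CROCC (0.987 for each). GDF15 was most like GATA2-AS1 (0.986) and SREBF1 (0.984), GREM1 like GLIPR1 (0.954) and VAMP3 (0.949), and BAMBI like BRCC3 (0.958) and IKBIP (0.946). These are descriptions, since the 9 points share 3 conditions, the same libraries and their differences in base composition.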

How the data were processed

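RNA of LX-2 cells was measured in 9 libraries, grouped by the sample labels. The authors deposited a table of read counts per gene symbol, not normalized and another of FPKM values covering those genes. The submitters' processing notes name fastp, HISAT2, HTSeq, R 3.2.0 and GRCh38.p13. Tests used edgeR 4.0.16 under R 4.3.3 on the counts, with its default expression filter, TMM factors and quasi-likelihood F-test, all 9 libraries in 1 model of condition and 3 comparisons, two-sided, with Benjamini-Hochberg adjustment over 13384 tested genes. The common biological coefficient of variation was 0.289. FPKM was used for levels between genes. Alternatives were RLE and upper-quartile factors, DESeq2 1.42.0, other filters, only the 2 groups compared, a replicate block, limma 3.58.1 on log2(FPKM + 1) or log2(FPKM + 0.1), and each library left out. The GC-slope covariate was chosen after seeing the data and used GENCODE v29 transcripts, which gave GC content for 12319 tested genes (92.0%). The scripts were tested on simulated data.

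The members and lists were chosen with earlier results of these data known. Named genes are all 10 members, up to 4 called genes per list, comparison and direction, each list's gene with the highest mean FPKM, the 2 genes most like each tested member, overlapping genes and 3 TGF-β targets. Some genes within this rule are not reported here and are in no count of the lists. Promoter sequence was matched by symbol.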

Additional observations from a re-analysis of the deposited data

How the results depend on the processing

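Over 19 named genes in 3 comparisons, alternatives gave 982 values with the same direction and side of the threshold, 17 uncalled values with the other sign, 74 that no longer passed, 49 that newly passed and 0 with a turned direction among called values. FSTL3 passed against control in all 20 alternatives of both comparisons (adjusted p at most 0.0198), and no member passed in TGF-β with uridine against TGF-β under any. Members called with TGF-β were 3, against 1 with only the 2 groups compared and 5 with the GC covariate, where 20.3% of genes were called; with uridine against control they were 3, against 2 with RLE factors, DESeq2, no filter or only the 2 groups compared (BMP1 lost in each) and 5 with that covariate, where 31.1% were called. Leaving out 1 library gave 1 to 3 members with TGF-β, 2 to 3 with TGF-β and uridine against control, and 0 to 0 between the treated groups. Without control replicate 2 or any TGF-β replicate, FSTL3 was the only member called with TGF-β.

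Of the other pathway genes, 2 were called with TGF-β (3.85%, beside 3.38% of all genes), against 5 with DESeq2 (8.77%, beside 4.89%), 4, 4 and 5 with limma (10.3%, 10.3% and 7.25%, beside 8.1%, 8% and 3.83%) and 12 with the GC covariate (23.1%, beside 20.3%). Between the treated groups they were 0, against 1 with DESeq2 (1.79%, beside 0.818%) and 2 with only the 2 groups compared (3.85%, beside 2.44%). They were 4 with each limma setting (10.3%, 10.3% and 5.80%, beside 3.89%, 3.81% and 1.42%) and 11 with the covariate (21.2%, beside 19.1%). For TGF-β with uridine against control they were 6 (11.5%, beside 5.33%), against 1 with only the 2 groups compared (1.92%, beside 1.7%). They were 1 of 52 with an absolute log2 fold change of at least 1 (beside 3.15%), and 22 with the covariate (42.3%, beside 31.1%). Without 1 library these counts were 2 to 7, 0 to 1 and 1 to 11, highest without control replicate 1, and the last was at most 3 without any other library. For medians of the antagonist to INHBA ratio, INHBA was set to at least 3 reads, which lowers the ratio of 3 treated libraries with fewer reads. Without 1 library these medians moved to 3297 to 4468 in control, 11068 to 14148 with TGF-β and 4412 to 9946 with TGF-β and uridine. All genes called between the treated groups were 6, against 317 with only the 2 groups compared and 2554 with the covariate. The cause was not tested.

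With the replicate number as a replicate block, 2 members passed with TGF-β (FSTL3 and BMP1), 0 between the treated groups and 2 with TGF-β and uridine against control (FSTL3 and NOG), and all genes called were 314, 0 and 437. Same-numbered libraries of different groups correlated at -0.210 to 0.558 in their deviations from group means, and differently numbered ones at -0.663 to 0.632. The numbers were not taken to pair libraries, since the labels do not say that they pair cultures.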
